A study of Mus musculus with 29 samples.

Results

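The 9 genes described here are the core of the Hedgehog pathway in the mouse lung: the ligand Shh, its release factor Scube2, the receptor Ptch1, the coreceptor Gas1, the ligand-binding inhibitor Hhip, the signal transducer Smo and the transcription factors Gli1, Gli2 and Gli3. They were chosen by name, with earlier results of these data known. They are the rows of the expression table whose NCBI gene identifiers carry these symbols, 9 of 22779 gene identifiers in the table. The data are RNA sequencing of alveolar septa, the walls between the air spaces, cut from frozen lung sections by laser capture. The libraries come from 29 wild type C57BL/6 mice of 15 ages between embryonic day 16.5 (E16.5) and postnatal day 28 (P28), a pair of animals for every age except P28, which has 1, and no group received a treatment. Ages were joined here into 4 groups: prenatal (E16.5 and E18.5, n = 4), postnatal saccular (the 4 ages from P0.5 to P2.5, n = 8), early alveolar (the 4 ages from P4 to P10, n = 8) and late alveolar (the 5 ages from P13.5 to P28, n = 9). Values are FPKM, fragments scaled by the length of the transcript and by the size of the library, so levels can be set side by side between genes.

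Hedgehog ligands are secreted proteins that carry lipids, and Scube2 helps to release them from the cell that makes them. A cell that receives the ligand carries Ptch1 in its primary cilium, where Ptch1 without ligand keeps Smo inactive. Binding of ligand frees Smo, and Smo in turn changes the balance of the Gli proteins: Gli2 acts mostly as an activator, Gli3 mostly as a repressor, and Gli1 is an activator that is itself made in response to the signal. Ptch1 and Hhip are also induced by the pathway and limit the ligand that made them. In the developing lung the epithelium makes Shh and the mesenchyme around it carries the receptors and Gli factors. The pathway is known there for branching and for the growth of smooth muscle and of myofibroblasts.

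More of these genes were called between the early and the late alveolar group than in any other comparison of groups or of the prenatal ages. Of the 9 genes, 7 fell (Shh, Ptch1, Hhip, Smo, Gli1, Gli2 and Gli3), 1 rose (Scube2), and Gas1 did not pass the test. A gene is called changed here when its Benjamini-Hochberg adjusted p from limma, over the 14616 genes tested, lies under 0.05. In this comparison 11.4% of all tested genes were called, 7.47% lower and 3.89% higher. The median log2 fold change was -0.92 over the 9 genes and -0.09 over all tested genes. The 7 lower genes fell by between 0.84 (Smo) and 1.72 (Gli3) on the log2(FPKM + 1) scale. Fewer cells of a type and less RNA per cell cannot be told apart in such tissue samples.

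**Figure D1:**
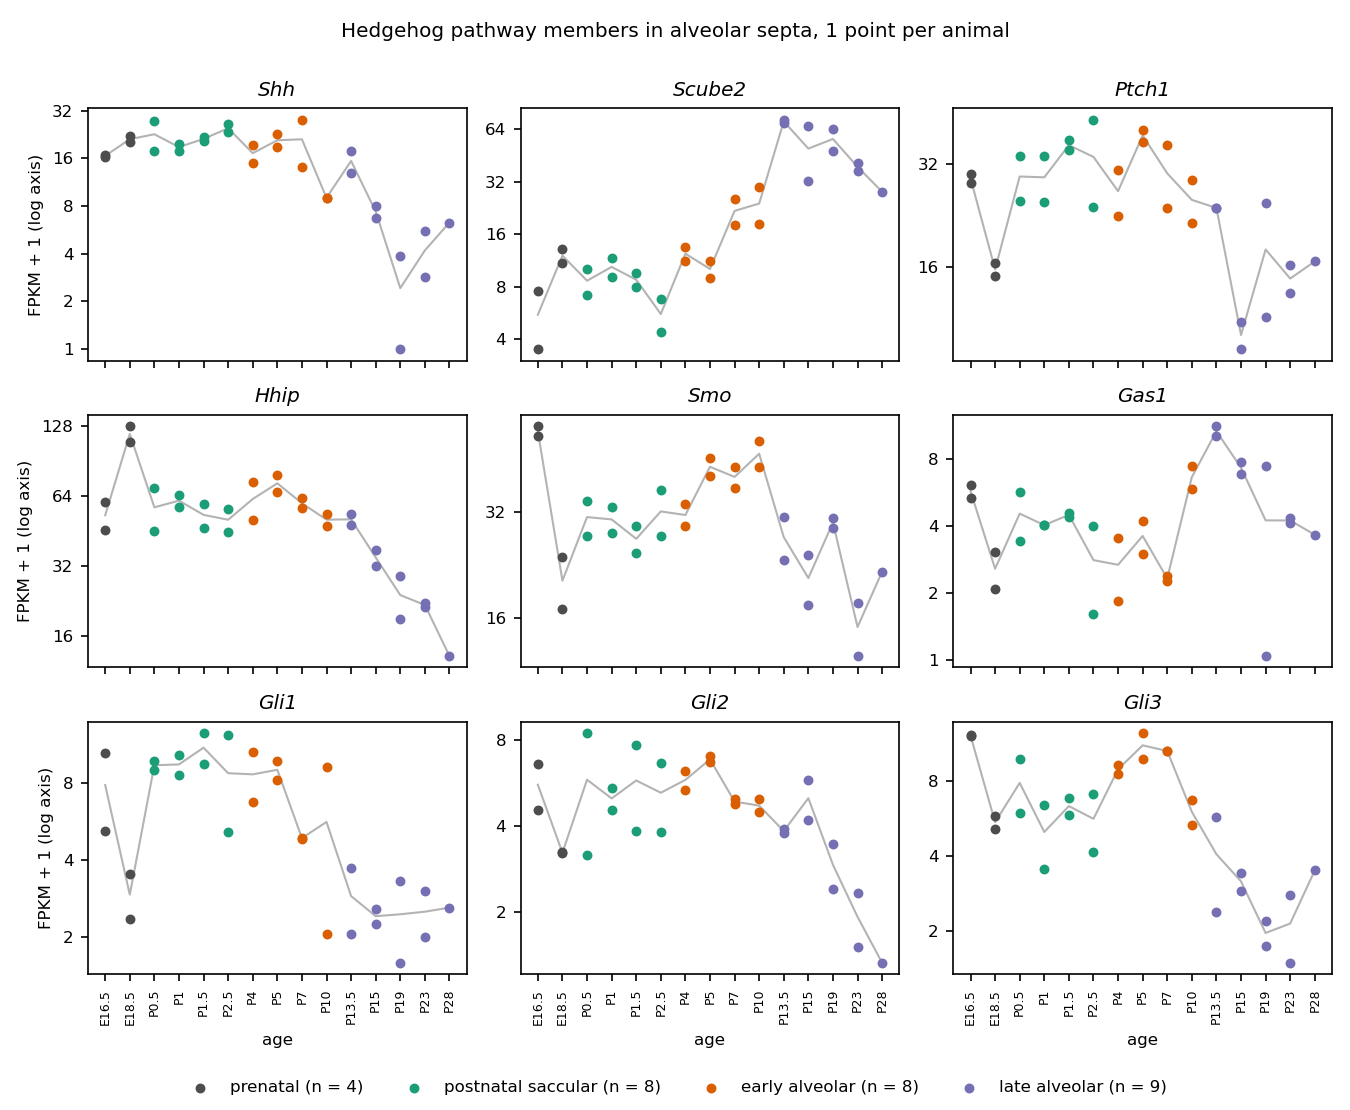
FPKM + 1 on a log2 axis against age for each of the 9 genes; each point is 1 animal, coloured by group, and the gray line joins the mean of each age. Shh, Hhip and the Gli factors are low at the latest ages, and Scube2 is at its highest mean, 70.0 FPKM, at P13.5.

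In all, 3 libraries stood apart before any gene was considered. Among 8621 abundant protein-coding genes, 577 were listed at 0 in P19 pup d, 416 in P10 pup a and 242 in P19 pup f, against a median of 15 per library. A listed 0 can be a failed estimate rather than absence, so results that rest on these libraries are also given without them. Summed FPKM ranged from 318176 to 457706 and genes at an FPKM of 1 or more from 10114 to 13059 per library. The labelled tissue carried its defining markers: the surfactant gene Sftpc was at 2066 FPKM or more in every library, and Ager of flat alveolar (AT1) cells at 20.9 FPKM or more. The airway secretory gene Scgb1a1 was present as well, with 3.62 to 416 FPKM before birth and a median of 3900 FPKM in the late alveolar group.

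To show the stretch of genome next to genes that moved in opposite directions, the 250 bases upstream of the RefSeq start are printed for Gli3 and Smo, which fell, and for Scube2, which rose (GRCm38.p6, RefSeq). Promoter sequence was matched for 7 of the 9 genes, all but Shh and Gli1. Capitals mark CCACCC or its reverse complement GGGTGG, the core of the site that Gli proteins are known to bind.
Gli3: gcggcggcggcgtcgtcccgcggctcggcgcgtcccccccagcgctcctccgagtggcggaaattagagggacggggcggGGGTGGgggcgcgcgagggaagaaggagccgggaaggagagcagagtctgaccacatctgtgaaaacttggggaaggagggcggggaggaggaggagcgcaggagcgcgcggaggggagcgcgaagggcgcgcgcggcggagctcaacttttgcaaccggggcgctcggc
Smo: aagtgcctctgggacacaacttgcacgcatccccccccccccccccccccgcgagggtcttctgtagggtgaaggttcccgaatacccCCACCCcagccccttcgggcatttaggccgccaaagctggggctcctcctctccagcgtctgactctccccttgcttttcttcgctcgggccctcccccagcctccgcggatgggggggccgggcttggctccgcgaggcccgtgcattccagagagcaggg
Scube2: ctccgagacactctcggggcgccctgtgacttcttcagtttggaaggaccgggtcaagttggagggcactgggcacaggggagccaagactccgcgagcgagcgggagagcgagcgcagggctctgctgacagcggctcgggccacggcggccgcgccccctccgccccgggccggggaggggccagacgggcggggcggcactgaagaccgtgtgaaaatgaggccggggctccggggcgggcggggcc

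These windows lie at chr13:15463473-15463722 (plus strand), chr6:29735247-29735496 (plus strand) and chr7:109865680-109865929 (minus strand). The core, searched on both strands, was in 4 of the 7 windows (Gli2, Gli3, Smo and Hhip) and in 28.1% of 32851 promoters of the same length. The windows of Ptch1, which also fell, and of Scube2 and Gas1 did not hold the core. Counted from -1 at the base before the start used for each window, it began at -170 in Gli3, -162 in Smo, -158 in Hhip, and -205 and -192 in Gli2. The windows of Gli2 (chr1:119053620-119053869) and Ptch1 (chr13:63565736-63565985) lie inside the gene spans given below. That of Hhip (chr8:80058009-80058258) overlaps the end of its span. For these genes the window is upstream of a start within the span. The longer site GACCACCCA, which holds the core within it, was in 0 of the 7 and in 0.225% of all promoters. A match is a description of letters and not a binding site.

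Shh lies on chromosome 5 (28456840 to 28467101, minus strand, GRCm38.p6). It was steady through birth and the first postnatal week. The 4 prenatal libraries held 15.8 and 15.4 FPKM at E16.5 and 21.0 and 19.3 FPKM at E18.5. The postnatal saccular libraries ran from 16.8 to 26.6 FPKM with a median of 20.2, and the early alveolar ones from 8.02 to 27.0 with a median of 15.9. Within the early alveolar group both P10 pups were lowest, at 8.02 FPKM each. The late alveolar libraries ran from a listed 0 in P19 pup d to 16.8 FPKM in P13.5 pup c, with a median of 5.30 FPKM, and 7 of the 9 lay below every early alveolar library while both P13.5 pups did not. Shh fell between these groups by 1.52 on the log2 scale (SE 0.36, limma adjusted p = 0.00451). Without P19 pup d it fell by 1.21 (adjusted p = 0.00455).

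Scube2, whose protein is known to free lipid-bearing Hedgehog from producing cells, lies on chromosome 7 (109798690 to 109865679, minus strand). It went the other way. Its prenatal levels were 2.51 and 6.56 FPKM at E16.5 and 12.2 and 9.98 FPKM at E18.5. Postnatal saccular libraries lay between 3.40 and 10.7 FPKM (median 7.53) and early alveolar ones between 8.03 and 28.7 (median 14.8). Within the early alveolar group all 4 libraries of P7 and P10 were above all 4 of P4 and P5. The late alveolar libraries lay between 27.0 and 71.6 FPKM (median 47.1), and 8 of the 9 exceeded every early alveolar one, P28 pup c being the exception. The rise from the early to the late group was 1.61 on the log2 scale (SE 0.27, adjusted p = 1.3e-04). The level was highest at P13.5 (71.6 and 68.4 FPKM) and was 27.0 FPKM at P28.

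Within a library, Scube2 was below Shh in all 4 prenatal and all 8 postnatal saccular libraries. It was above Shh in 3 of 8 early alveolar libraries and in 9 of 9 late alveolar ones. The order of the ligand and its release factor on the FPKM scale was mixed at P7, where 1 of the 2 pups had more Scube2, and both P10 pups had more Scube2.

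**Figure D2:**
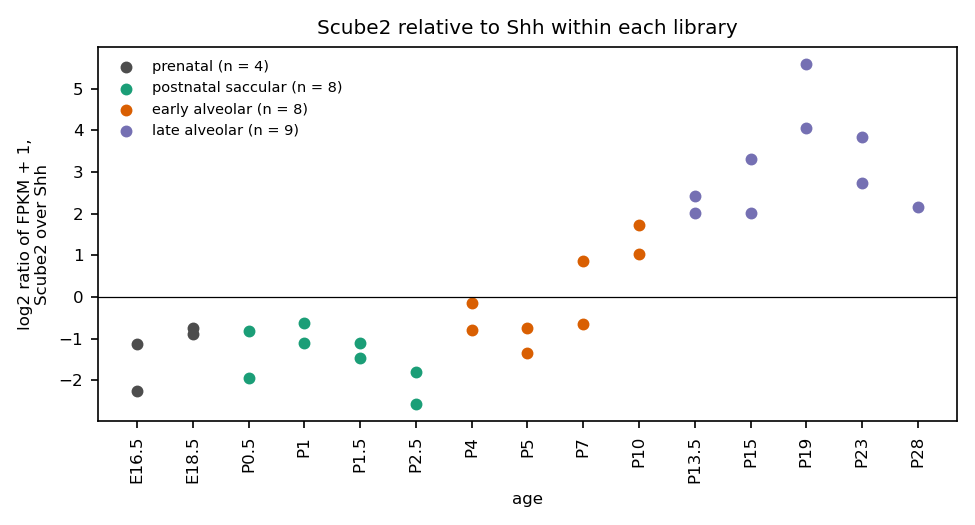
Log2 ratio of Scube2 to Shh, each as FPKM + 1, in every library against age, coloured by group; the line at 0 marks equal levels. All prenatal and postnatal saccular points lie below 0 and all 9 late alveolar points above it, the highest being P19 pup d, in which Shh is listed at 0.

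Ptch1, the receptor and itself an induced gene of the pathway, lies on chromosome 13 (63508328 to 63573460, minus strand). Its E16.5 levels were 27.2 and 28.9 FPKM and its E18.5 levels 14.1 and 15.4 FPKM. Postnatal saccular libraries ran from 23.0 to 42.0 FPKM (median 32.7) and early alveolar ones from 20.4 to 39.2 (median 28.8). Late alveolar libraries ran from 8.23 to 23.6 FPKM (median 15.2), and 6 of the 9 lay below the whole early group. Ptch1 fell by 0.90 between these groups on the log2 scale (SE 0.20, adjusted p = 0.00349). The lowest libraries were both P15 pups, at 8.23 and 10.1 FPKM, next to P19 pup f at 10.4.

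Hhip, a membrane-anchored protein that binds Hedgehog ligand and keeps it from Ptch1, lies on chromosome 8 (79965850 to 80058060, minus strand). It had the highest mean FPKM of the 9 genes in the first 3 groups, and in the late alveolar group its mean of 29.6 FPKM was below the 50.1 of Scube2. The E16.5 libraries held 59.1 and 44.6 FPKM and the E18.5 libraries 127 and 108 FPKM, the highest of the whole course. Levels of 43.7 to 68.2 FPKM (median 55.8) followed in the postnatal saccular group and 46.5 to 77.7 (median 58.6) in the early alveolar group. Late alveolar libraries lay between 12.1 and 52.5 FPKM (median 28.0), and 7 of the 9 were below every early one. Hhip fell by 1.11 between these groups (SE 0.22, adjusted p = 0.00124). Both P13.5 pups, at 47.0 and 52.5 FPKM, remained within the early range, and every later library was lower.

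Gas1, a membrane-bound coreceptor that helps Shh to bind Ptch1, lies on chromosome 13 (60174405 to 60177535, minus strand). It was low, with group medians of 3.21 FPKM before birth, 3.04 in the postnatal saccular, 2.27 in the early alveolar and 5.87 in the late alveolar group. Its 2 highest libraries were those of P13.5, at 10.2 and 9.10 FPKM, and P10, P15 and P19 pup f lay between 4.85 and 6.72 FPKM. P19 pup d held 0.0475 FPKM. The difference between late and early alveolar groups was 0.61 on the log2 scale (SE 0.38, adjusted p = 0.329), and the groups overlapped. Without the 3 libraries rich in zeros it was 1.03 (adjusted p = 0.0412), and without P19 pup d alone 0.90 (adjusted p = 0.0670).

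Smo lies on chromosome 6 (29735497 to 29761366, plus strand). It encodes the membrane protein that passes the signal from Ptch1 to the Gli factors. The highest values of the course were at E16.5, 54.8 and 51.3 FPKM, and at E18.5 they were 16.0 and 22.8 FPKM. Postnatal saccular libraries ran from 23.4 to 35.8 FPKM (median 27.5), and early alveolar ones from 28.1 to 49.6 (median 40.5). Late alveolar libraries ran from 11.5 to 29.9 FPKM (median 22.3), with 7 of 9 below every early one. Smo fell by 0.84 between these groups (SE 0.20, adjusted p = 0.00497). The call depended on where the alveolar stage was divided: with P10 counted as late, the change was -0.57 (adjusted p = 0.139), and the P10 libraries held 49.6 and 41.8 FPKM. Smo was the 1 gene of the 9 on more than 1 line of the table, and the line with the higher mean was used.

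Gli1, an activator and a common readout of the pathway, lies on chromosome 10 (127329882 to 127341579, minus strand). The E16.5 embryos held 9.48 and 4.19 FPKM and the E18.5 embryos 1.35 and 2.52 FPKM. Postnatal saccular libraries lay between 4.13 and 11.5 FPKM (median 8.59) and early alveolar ones between 1.06 and 9.52 (median 6.46). The late alveolar libraries all lay between 0.593 and 2.73 FPKM (median 1.57). The only early alveolar library in that range was P10 pup a, at 1.06 FPKM, 1 of the 3 rich in zeros, while the other P10 pup held 8.20 FPKM. Gli1 fell by 1.34 between the groups (SE 0.30, adjusted p = 0.00316) and by 1.57 without P10 pup a. Its span overlaps that of Arhgap9, a coding gene with a mean of 2.44 FPKM here, and the strand setting of the counting is not given in the sources used here.

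Gli2 lies on chromosome 1 (118834061 to 119054405, minus strand) and was the lowest of the Gli factors in mean over the early alveolar libraries. The prenatal libraries held 3.55, 5.59, 2.24 and 2.21 FPKM. The postnatal saccular median was 3.99 FPKM (2.17 to 7.43) and the early alveolar one 4.16 (3.47 to 5.99). In the late group it was 2.46 FPKM (0.333 to 4.79), with 8 of 9 libraries below every early one and P15 pup e the exception. Gli2 fell by 0.92 in the late group (SE 0.27, adjusted p = 0.0249, the highest p of the 7). The call was lost without P23 pup e (-0.81, adjusted p = 0.0547), without P28 pup c (-0.78, adjusted p = 0.0548) or with P10 counted as late (-0.87, adjusted p = 0.0609), and when only the 2 groups compared entered the fit (-0.92, adjusted p = 0.0536).

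Gli3 lies on chromosome 13 (15463723 to 15730026, plus strand). Its prenatal values were 11.2 and 11.3 FPKM at E16.5 and 4.14 and 4.84 FPKM at E18.5. Postnatal saccular libraries ran from 2.56 to 8.84 FPKM (median 5.21), and early alveolar ones from 4.34 to 11.5 (median 8.59), with P5 and P7 high and P10 low. The late alveolar range was 0.494 to 4.78 FPKM (median 1.80), and 8 of 9 libraries lay below every early one, the exception being P13.5 pup d. Its late change, at -1.72, was the largest fall of the 9 genes, and its adjusted p lay between 1.2e-05 and 6.6e-04 over the alternatives run.

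The Gli factors also changed their order within libraries. Gli3 exceeded Gli1 in all 4 prenatal libraries, whereas Gli1 exceeded Gli3 in 7 of 8 postnatal saccular libraries, in 2 of 8 early alveolar and in 3 of 9 late alveolar ones. Gli3 exceeded Gli2 in 4 of 4 prenatal and 8 of 8 early alveolar libraries, but in 3 of 9 late ones. Ptch1 exceeded Gli1 in all 29 libraries. These orders are counts over libraries and were not tested.

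**Figure D3:**
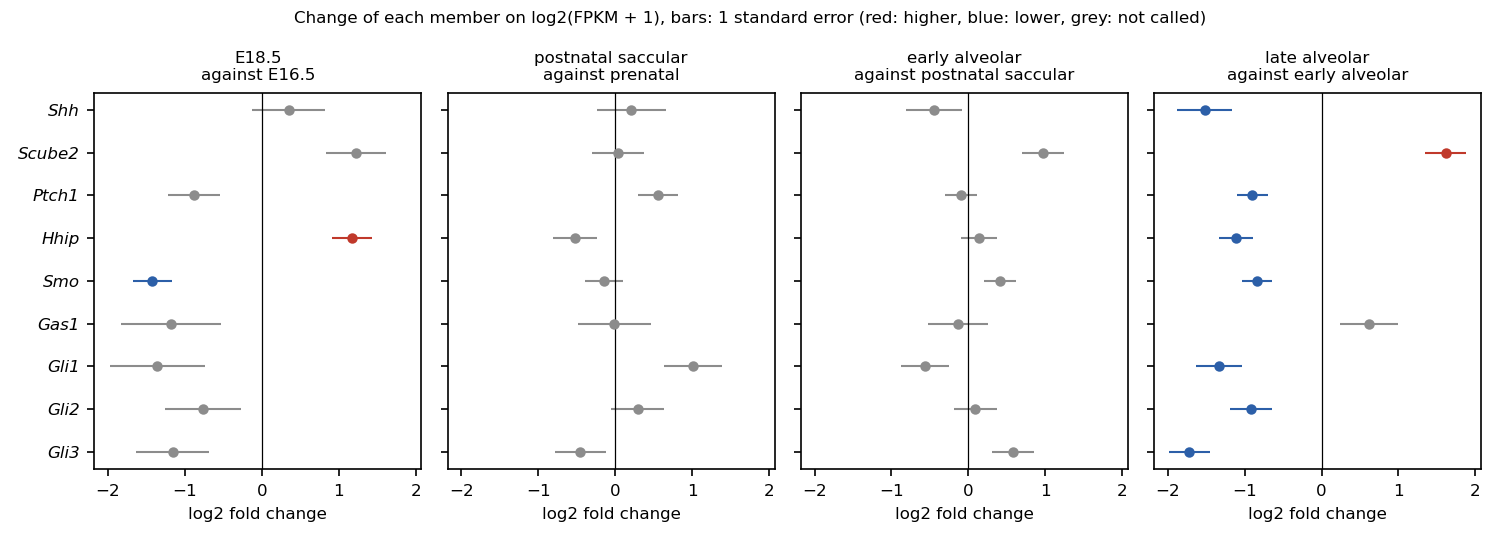
Log2 fold change of FPKM + 1 with 1 SE for each of the 9 genes in 4 panels. From left to right they are E18.5 against E16.5, postnatal saccular against prenatal, early alveolar against postnatal saccular, and late against early alveolar. The late panel holds 7 calls to the left of 0 and Scube2 at 1.61 to the right. The E18.5 panel holds Hhip at 1.17 and Smo at -1.42 as calls, and no gene is called in the panels between.

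Across birth, 0 of the 9 genes were called by limma, against 15.9% of all tested genes (9.11% higher and 6.81% lower). An unadjusted p under 0.05 was reached by 2 of the 9, Gli1 and Ptch1, and by 28.9% of all tested genes. Gli1 was 1.02 higher in the postnatal saccular group (SE 0.38, adjusted p = 0.0648) and Ptch1 0.56 higher (adjusted p = 0.146). The prenatal group joins E16.5 and E18.5, so the comparison was also made with the nearer age. With E18.5 alone before birth, 2 of the 9 were called where 5.75% of all tested genes were (3.97% higher and 1.78% lower): Gli1 was higher after birth by 1.70 (adjusted p = 0.0225) and Hhip fell by 1.11 (adjusted p = 0.0436). All 8 postnatal saccular libraries held more Gli1, Ptch1 and Smo and less Hhip than either E18.5 library. These are 4 of the 9 genes, and 20.5% of all tested genes separated these libraries in either direction. Ptch1 was higher by 1.00 (adjusted p = 0.0587) and Smo by 0.57 (adjusted p = 0.223), and neither passed. Cell markers were compared as well, but only with E16.5 and E18.5 joined. Against the whole prenatal group, 5 of 6 endothelial, 4 of 6 myofibroblast and smooth muscle, 4 of 6 AT1 and 4 of 6 AT2 markers were called higher and 5 of 6 markers of cycling cells lower. Summed myofibroblast and smooth muscle markers ran from 188 to 338 FPKM before birth and from 256 to 606 after it, summed endothelial markers from 279 to 678 and from 692 to 1052, and summed cycling markers from 264 to 663 and from 31.6 to 330. At E18.5 alone the myofibroblast and smooth muscle sum was 188 FPKM in both libraries. Endothelial sums there were 584.5 and 678 FPKM and cycling sums 264 and 266. Summed AT1 markers were 716 and 778 FPKM at E18.5 and 854 to 1480 after birth. Summed AT2 markers were 14070 and 17200 FPKM at E18.5, inside the 8755 to 22220 after birth. The marker calls were not repeated with E18.5 alone. The part of the markers in the birth values of the Hedgehog genes was not tested.

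Between E16.5 and E18.5, with 2 embryos at each age, 2 of the 9 genes were called against 4.53% of all tested genes (2.52% higher and 2.00% lower). Hhip rose by 1.17 (SE 0.26, adjusted p = 0.0108) and Smo fell by 1.42 (SE 0.25, adjusted p = 0.00224). Without E16.5 embryo 2 the Hhip difference was 0.97 (adjusted p = 0.159), and without E18.5 embryo 4 it was 1.06 (adjusted p = 0.129). Smo without E18.5 embryo 4 was at -1.18 (adjusted p = 0.0610). With 2 embryos against 2, all 9 genes separated the ages without overlap, 6 lower and 3 higher at E18.5, and so did 48.9% of all tested genes. The 7 genes that did not pass were Ptch1 (-0.88, adjusted p = 0.165), Gli1 (-1.36, adjusted p = 0.264), Gli2 (-0.76, adjusted p = 0.477), Gli3 (-1.16, adjusted p = 0.200), Gas1 (-1.18, adjusted p = 0.386), Scube2 (1.22, adjusted p = 0.0831) and Shh (0.35, adjusted p = 0.799). The median over the 9 genes was -0.88, beside -0.10 over all tested genes. Markers of other cells moved in the same interval: 5 of 6 AT2, 5 of 6 AT1, 3 of 6 endothelial and 2 of 5 alveolar fibroblast genes were called higher. The summed AT1 markers went from 113 and 135 FPKM to 716 and 778, and the summed alveolar fibroblast markers from 334 and 490 to 783 and 872. Summed myofibroblast and smooth muscle markers went from 329 and 338 FPKM to 188 in both embryos, with 1 of 6 called lower. Summed cycling markers went from 661 and 663 FPKM to 264 and 266, with none of 6 called. Their part in the Hedgehog values was not tested.

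In the early alveolar group against the postnatal saccular one, 0 of the 9 genes were called by limma, against 1.46% of all tested genes (0.527% higher and 0.937% lower). An unadjusted p under 0.05 was reached by 2 of the 9, Scube2 and Gli3, and by 13.1% of all tested genes. Scube2 was 0.97 higher (SE 0.28, adjusted p = 0.0719) and Gli3 0.58 higher (adjusted p = 0.352). Scube2 was called, at the same 0.97, when only these groups entered the fit (adjusted p = 0.0465).

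Over all 29 libraries, a smooth curve of age was called for 8 of the 9 genes, where 30.7% of all tested genes were called. The F value was highest for Scube2 (40.8, adjusted p = 2.9e-08), then Hhip (27.5, adjusted p = 8.9e-07) and Shh (19.7, adjusted p = 1.3e-05). Gas1 was the exception (F of 2.82, adjusted p = 0.126) and was called without P19 pup d (adjusted p = 0.0121). With all libraries it was called under quantile normalization (F of 7.27, adjusted p = 0.00554) and with array quality weights (F of 4.41, adjusted p = 0.0327). Its adjusted p from the F test reached 0.761 under another setting. Smo had the lowest F of the 8 (5.26, adjusted p = 0.0215) and was not called without P23 pup f (adjusted p = 0.0885).

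The course over ages was shared by some of the genes. Over the 15 age means of log2(FPKM + 1), r was 0.87 between Ptch1 and Gli1, 0.79 between Shh and Gli3, 0.78 between Shh and Hhip, and -0.84 between Scube2 and Gli1. These values describe age means that share libraries, and they carry no test. Between the 2 animals of an age, the animal with more Gli2 also had more Gli3 at 11 of 14 ages, and the one with more Ptch1 had more Gli1 at 9 of 14. For Shh and Ptch1 the same animal was higher at 5 of 14 ages. Over all pairs of the 9 genes this count ran from 4 to 11, Gli2 with Gli3 being the highest. Other pairs, such as Scube2 and Ptch1, also reached 9. The counts were not tested.

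The course over the 15 age means was also compared with that of 9022 tested genes whose mean FPKM was 5 or more. Predicted genes, small RNAs and, by name, Nkx2-1 were left out of this ranking. Nearest to Shh was Wnt2 (r = 0.93), a signal known from lung mesenchyme, with Enah (0.93) and Mpzl1 (0.92) next. Nearest to Gli3 was Unc5c, a netrin receptor (r = 0.95), nearest to Gli2 the actin bundler Fscn1 (0.92), and nearest to Gli1 the phosphatase Ptpn9 (0.91). Ptch1 was most like Hoxb3 (0.92), Hhip most like Stom (0.92) and Smo most like Ier5l (0.91), followed by the cyclin Ccnd2 (0.90). Scube2 was most like the calcium channel Itpr2 (0.93), the integrin Itga1 (0.92) and the transporter Abcb1a (0.92). For Gas1 no gene came closer than Slc39a14, a zinc transporter (0.77). Of the 27 genes ranked this way, 3 for each member, 8 were also among the 3 nearest over the 29 single libraries, and Wnt2 ranked 297 for Shh there (r = 0.63).

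Of 39 other Hedgehog pathway genes, 38 were tested. In the late alveolar group 9 of the 38 were called lower and 3 higher, with a median of -0.44. Of all tested genes 7.47% were called lower and 3.89% higher there, with a median of -0.09. Among the genes for release and reception, Scube1, a relative of Scube2, rose by 0.69 (SE 0.23, adjusted p = 0.0452), from a median of 2.78 to 4.69 FPKM, while Scube3 was at -0.57 (adjusted p = 0.182). The coreceptor Boc fell by 0.69 (adjusted p = 0.0133) and Gpc3, a glypican that competes with Ptch1 for ligand, fell by 1.06 (adjusted p = 0.00126). Lrp2, an endocytic receptor that can bind Shh, rose by 0.81 (adjusted p = 0.0258). The other ligands were not called in any comparison: Ihh had group medians of 4.66 to 11.5 FPKM, and it was at -0.23 in the late comparison (adjusted p = 0.744), and Dhh at -0.81 (adjusted p = 0.129).

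Among regulators inside the cell, Spop, an adaptor of the ubiquitin ligase that targets Gli2 and Gli3, rose by 0.82 (SE 0.15, adjusted p = 4.8e-04), and the kinase gene Csnk1a1 fell by 0.45 (adjusted p = 0.0217). Of 8 tested genes for the cilium and for Smo control, 3 were called lower and none higher: Tulp3 fell by 1.00 (adjusted p = 0.0232), Gpr161 by 1.19 (adjusted p = 0.0311) and the ciliary motor gene Kif3a by 0.52 (adjusted p = 0.0325). Of 9 genes known as targets in mesenchyme, 3 fell: Foxf2 by 1.08 (adjusted p = 0.00265), Mycn by 1.46 (adjusted p = 0.00534) and Ccnd2 by 0.65 (adjusted p = 0.00772). Foxf1, the sister gene of Foxf2, was at -0.29 (adjusted p = 0.195). Foxf1 was called instead between the prenatal and the postnatal saccular group, where it rose by 1.78 (SE 0.18, adjusted p = 9.0e-08). Foxf2 (1.09, adjusted p = 0.0124) and Lrp2 (1.35, adjusted p = 0.00245) rose there as well, while Csnk1a1 fell by 0.60 (adjusted p = 0.0111) and Kif3a by 0.75 (adjusted p = 0.0115). These were the 3 higher and 2 lower calls among the 38 there. Of all tested genes 9.11% were called higher and 6.81% lower. The prenatal libraries held 17.4 to 31.7 FPKM of Foxf1 and 5.09 to 24.0 of Foxf2. Postnatal saccular ones held 72.0 to 111 and 18.6 to 37.3 FPKM. The 38 genes were not compared with E18.5 alone. Markers called higher in the same comparison were 5 of 6 for endothelium and 4 of 6 for myofibroblasts and smooth muscle. When the early alveolar group was set against the postnatal saccular one, no gene of the 38 was called, where 1.46% of all tested genes were. Cdon, Ccnd2 and Mycn fell between E16.5 and E18.5, by 1.53, 1.20 and 2.16 (adjusted p of 0.0247, 0.00163 and 0.0264). These were the only calls among the 38 there, where 2.00% of all tested genes were called lower and 2.52% higher.

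**Figure D4:**
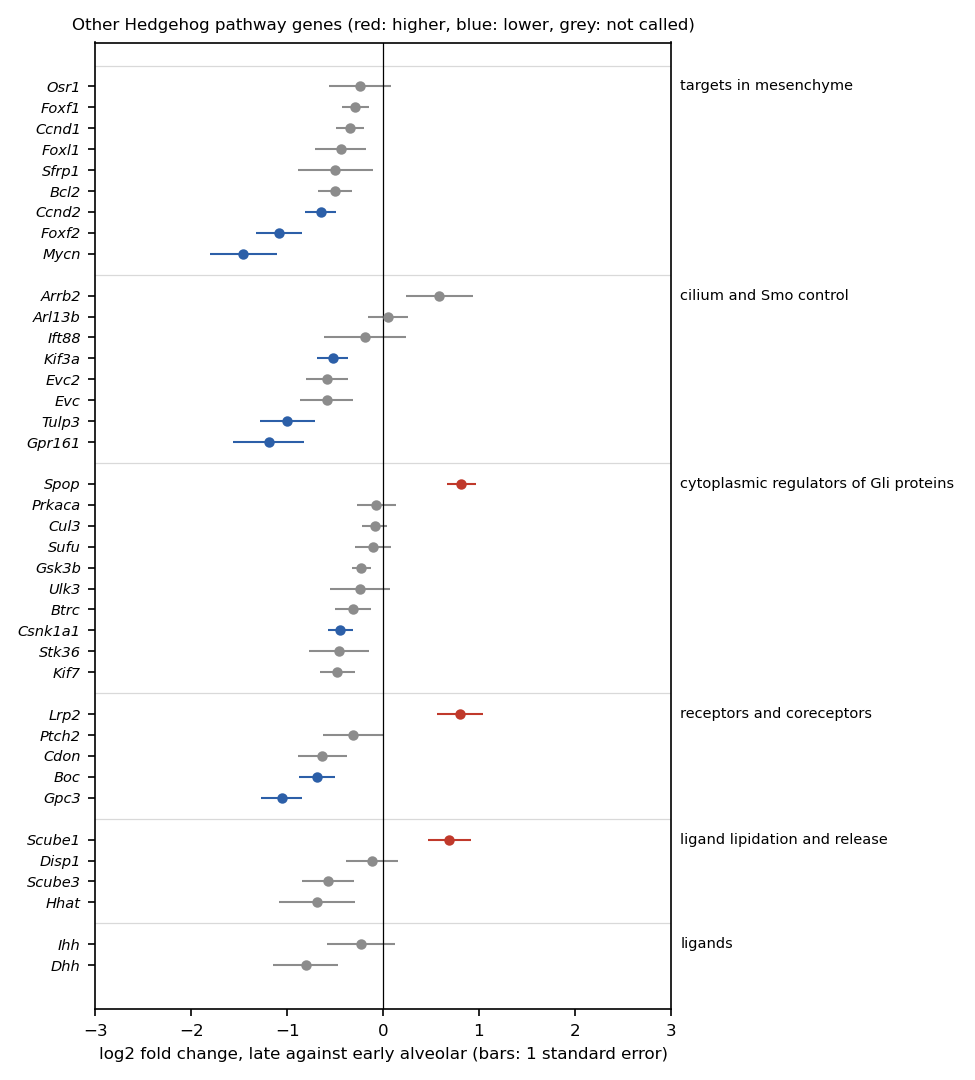
Log2 fold change of FPKM + 1 with 1 SE, late against early alveolar, for the 38 other Hedgehog pathway genes that were tested, grouped by role. The 9 lower calls include Gpc3 at -1.06, Foxf2 at -1.08 and Mycn at -1.46, and the 3 higher calls are Scube1, Lrp2 and Spop.

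Markers of cell types moved beside the late change. All 6 myofibroblast and smooth muscle markers were called lower, with a median of -1.08, and their summed level went from 335 to 654 FPKM in the early libraries to 146 to 261 in the late ones. The most abundant of them, Acta2, had medians of 169 and 41.3 FPKM. All 6 markers of cycling cells were called lower as well, their sum going from 85.3 to 482 FPKM to 11.2 to 196. None of 6 AT1 and none of 6 AT2 markers was called, with summed AT1 markers of 346 to 942 FPKM in the early and 597 to 1053 FPKM in the late libraries. Of 5 tested airway markers none was called, and of 5 tested alveolar fibroblast markers 2 were higher and 1 lower. The part of these shifts in the fall of the 7 Hedgehog genes was not tested.

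The calls of the late comparison were also made under other scalings. Quantile normalization changed the balance over all genes from 568 higher and 1092 lower to 741 higher and 864 lower, and under it 6 of the 9 Hedgehog genes were lower and Scube2 higher, Gli2 not passing (-0.68, adjusted p = 0.109). Without the 3 libraries rich in zeros, 7 were lower and 2 higher, where 10.0% of all tested genes were called (6.81% lower and 3.21% higher).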

How the data were processed

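Alveolar septa were isolated by laser capture from frozen lungs and total RNA was sequenced after removal of ribosomal RNA. Per the submitters' processing notes, the authors used STAR 2.5.1 and Cufflinks 2.2.1 with the mouse build mm10 and deposited 1 table of FPKM values. The gene annotation is not given in the sources used here. FPKM hold no read totals, so depth is unknown and no counting interval is given. The table has 24486 lines for 22779 gene identifiers, of which 22718 matched a RefSeq symbol, and of repeated identifiers the line with the highest mean was kept.

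Genes with an FPKM of 1 or more in at least 4 libraries were tested (14616). Fold changes are on the log2(FPKM + 1) scale, which understates the change of low genes. limma 3.58.1 in R 4.3.3 was fitted once to the 4 groups, with a trend in the prior variance and Benjamini-Hochberg adjustment at 0.05. A fit of 15 ages gave E18.5 against E16.5, and a spline of 3 degrees of freedom in log2 days since conception gave the age test. The test was checked on simulated data. Libraries are separate animals as labelled. The series' design text does not list E18.5, which the sample labels give.

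The 9 genes, the other pathway genes and the marker lists were chosen with earlier results of these data known. Named were all 9 genes, for each role at most 3 called pathway genes in each direction by smallest p, the 3 genes most alike by r, and the most abundant marker of a list. Alternatives were other pseudocounts, filters, scalings, groupings and fits, and each library left out in turn. The pathway gene Grk2 was not analysed here.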

Additional observations from a re-analysis of the deposited data

Results flagged for a closer look

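In each of the 4 groups the highest and lowest library of each of the 9 genes were compared with the rest by Dixon's 95% critical value, 36 checks in all, of which chance flags about 1 in 20. Gas1 in P2.5 pup h stood apart within the postnatal saccular group, at 0.622 FPKM against 2.43 in the next lowest library. Gli1 in the same animal stood apart at 4.13 FPKM against 7.60 in the next lowest. Of abundant coding genes 7 were listed at 0 in that library, fewer than the median of 15. Gas1 in P19 pup d stood apart within the late alveolar group, at 0.0475 FPKM against 2.66 in the next lowest library, and that library had 577 abundant coding genes listed at 0.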

How the results depend on the processing

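Of 1782 single-gene results under alternatives, 1736 kept their direction and their side of the threshold, 10 lost and 20 gained a call, and 16 changed sign, none of them called in either fit. At birth the count of 0 genes called was 1 with quantile normalization, array quality weights or without the 3 libraries rich in zeros (Gli1), 1 with a fit of 15 age groups (Hhip), and 2 with E18.5 alone. Of all 14616 tested genes, 1537 were called higher and 1109 lower there with quantile normalization, and 1521 and 1115 with array quality weights. They were 1596 and 1364 without the 3 libraries, and 1559 and 1319 with the fit of 15 age groups. With E18.5 alone they were 580 and 260. The birth count of the 9 genes was 0 to 1 with a library left out (1 without E16.5 embryo 9, P2.5 pup h or P10 pup a, each time Gli1). Of all tested genes, 892 were called higher and 491 lower without E16.5 embryo 9. They were 1214 and 896 without P2.5 pup h, and 1421 and 1118 without P10 pup a. For the early alveolar against the postnatal saccular group the count of 0 was 1 (Scube2) with array quality weights, with only the 2 groups or with a fit of 15 age groups, and 0 to 1 with a library left out (1 without E16.5 embryo 9 or P5 pup e). Of all tested genes, 317 were called higher and 380 lower with the weights, and 167 and 245 with only the 2 groups. They were 260 and 349 with the fit of 15 age groups. Without E16.5 embryo 9 they were 78 and 141, and without P5 pup e 67 and 140. For E18.5 against E16.5 the count of 2 was 0 to 2 with a library left out, with 0 without E18.5 embryo 4. Without that embryo 161 of all tested genes were called higher and 61 lower. The late count of 8 was 6 to 9 under other settings and 7 to 8 with a library left out. With P10 counted as late, 371 of all tested genes were called higher and 935 lower. They were 466 and 983 without P23 pup e, and 460 and 985 without P28 pup c. The age count of 8 was 8 to 9 under other settings and 7 to 9 with a library left out. In the main fit 30.7% of all tested genes were called for age. At birth Scube2 was -3.3e-04 under median ratio scaling and, with E18.5 alone, -0.58, while Gas1 was 0.58, Smo 0.57 and Gli3 0.13. With a library left out, birth values ran from -0.36 to 0.28 for Scube2, -0.30 to 0.22 for Gas1 and -0.46 to 0.11 for Smo, and Gli2 in the early alveolar comparison from -0.0097 to 0.19. The causes were not tested. No paired analysis was possible because embryo numbers and pup letters mark different animals at each age.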
